A study of Homo sapiens with 9 samples.

Results

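RNA sequencing compared embryonic stem cells with the cells they became after 42 days of a differentiation toward serotonin neurons. Each of 34961 genes in the deposited table was a member of the comparison, which used 6 of the 9 libraries of the series, and 20156 genes passed the filter on low counts and were tested. The cells were WA09, a human embryonic stem cell line also called H9, with the EGFP reporter knocked in at TPH2, the gene for the neuronal enzyme of serotonin synthesis. Both groups carried this knock-in. Day0 libraries (3) were labelled as the stem cells themselves, and Day42 libraries (3) as TPH2-positive serotonin neurons, with serotonin neuron induction entered as the treatment. Libraries of Day21, labelled neural progenitors, entered the fit through the filter on low counts, the scaling and the estimate of spread. The labels call the libraries of a day biological replicates and do not say whether they were separate differentiations, so the p-values reflect how far these libraries lie apart, and that spread may be technical. Whether the Day42 cells were collected by their EGFP is likewise not said, so a gene can differ because cells were selected as well as because cells changed. All libraries trace to 1 edited line.

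Serotonin neurons of the brainstem make serotonin from tryptophan in a pair of steps: tryptophan hydroxylase adds a hydroxyl group, and the decarboxylase DDC removes a carboxyl group. A vesicular monoamine transporter loads the product into vesicles, a plasma membrane transporter takes it back up, and monoamine oxidases break it down. Transcription factors including FEV, GATA2, GATA3 and EN1 switch on and hold this program. Human embryonic stem cells, in turn, divide quickly, grow as an epithelium and depend on a small circuit of factors around POU5F1, NANOG and SOX2.

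Total counts were 58526466 to 66034630 on Day0 and 59429495 to 69658328 on Day42. Day0 libraries had a count for 22198 to 24359 genes. The Day42 libraries had one for 16077, 17101 and 10797 genes, so that the third stood apart although it held the most counts of the 3. Each finding is therefore given with all libraries and without Day42 replicate 3, called replicate 3 from here on unless another day is named. Pearson's r of log2 CPM (counts scaled to library size) over the 20156 tested genes, a description across genes, was 0.949 to 0.974 between Day0 libraries, 0.877 between Day42 replicates 1 and 2, and 0.735 and 0.738 between replicate 3 and these. Levels are FPKM, fragments scaled to the length of the transcript and the depth of the library. Changes are Day42 minus Day0 on the log2 scale with their SE, from edgeR's quasi-likelihood test with Benjamini-Hochberg adjustment over all genes tested. A gene was called when its adjusted p was below 0.05 and its log2 change at least 1 in size, and "rose" and "fell" are used only of called genes. A library without a count for a gene could still hold up to 12 counts of it. A fold against a day at 0 in all 3 libraries is computed from the mean of that limit, and its "at least" covers counting error only. Day42 zeros also befell genes well above this limit, a mean of 0.146 CPM there. Of genes at 1 to 3 CPM in both other Day42 libraries, 7.21%, 6.12% and 53.4% had no count in replicates 1, 2 and 3. The shares of replicates 1 and 2 cover only genes that replicate 3 also held. Folds of genes at 0 on Day42 are therefore not firm bounds.

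With all libraries, 1778 genes rose (8.82% of those tested) and 4721 fell (23.4%). Without replicate 3, 21827 genes were tested, of which 3220 rose (14.8%) and 5664 fell (25.9%). The genes that rose in both fits numbered 1680, and those that fell in both 4313. Without replicate 3, 1540 further genes rose, 1033 of them with no count in it, and 1351 further genes fell. Leaving out Day0 replicate 1 instead gave 1072 rising genes. Falling genes were mostly faint on Day0. Of the 4721, 2645 (56.0%) had a mean Day0 level under 1 FPKM and 2783 (58.9%) were at 0 in all Day42 libraries, whereas 93 of the rising genes (5.23%) stayed under 1 FPKM on Day42. Among genes at 1 FPKM or more on the higher day, 1685 rose and 2076 fell, and 2794 and 2990 did so without replicate 3. At 10 FPKM or more the counts were 876 and 1171. Counts over gene lists stand against these shares of all genes tested. Falling members made up 18.8% of blood and endothelial markers, 21.7% of mesenchymal markers, 22.2% of serine and one-carbon genes, 25% of serotonin handling genes, 25% of neuronal intermediate filaments, 26.3% of chaperones and 26.7% of other transmitter genes, near the share over all genes, so that these falling counts say nothing about the lists. The same holds for the rising share of sterol synthesis genes (8%), translation factors (8.57%), interleukin receptors (10.5%), p53 targets (11.1%) and mesenchymal markers (13%). It holds too for glycolysis genes (13%), endoderm markers (12.5%), neural crest markers (11.1%), and oncofetal regulators, oligodendrocyte and choroid plexus markers (10% each). Rising shares of DNA methylation genes (9.09%), astrocyte markers (7.14%) and other transmitter genes (6.67%) were likewise near that over all genes. Of all genes tested, 17.0% were at 0 in every Day42 library. Counts of such zeros over the listed genes also take in genes that were not tested, for which no share over all genes is given. For scale, the Day42 libraries had a count for 16077, 17101 and 10797 of the 34961 genes. In bulk RNA such as this, fewer cells of a type and less RNA of a gene per cell cannot be told apart.

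**Figure D1:**
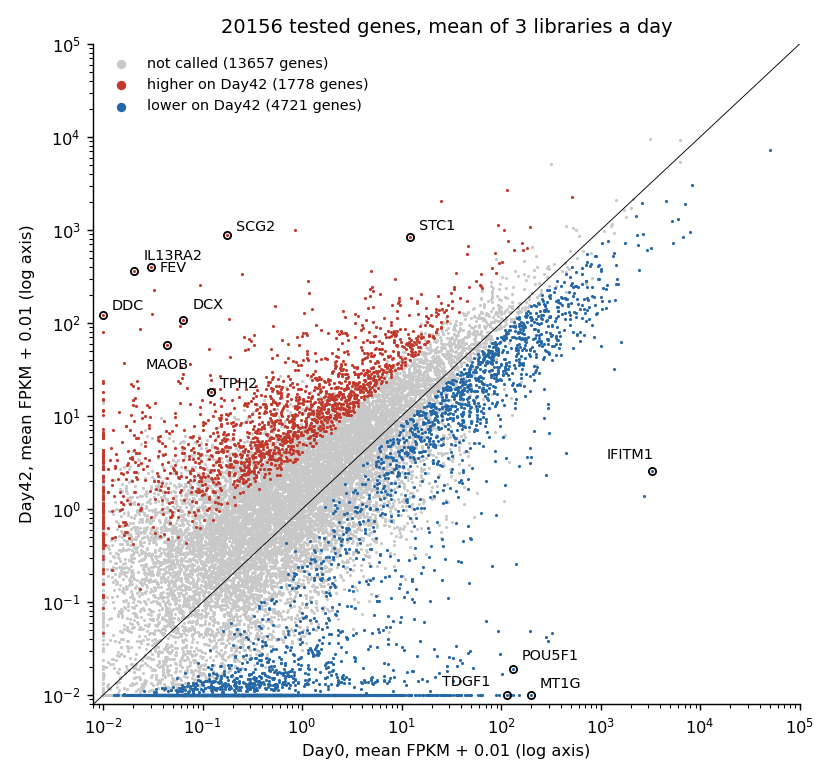
Mean FPKM of each gene on Day42 (vertical axis) against Day0 (horizontal axis), both on log axes after adding 0.01, over 20156 tested genes, with 1778 that rose in red, 4721 that fell in blue and selected genes circled and named. DDC, FEV and SCG2 lie at the upper left, and POU5F1, TDGF1 and MT1G at the lower right.

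The split of calls moved with scaling. TMM scaling, which sets libraries level on the bulk of their genes, gave a median change over all tested genes of −0.569 (−0.527 without replicate 3), and rising genes made up 27.4% of calls. Scaling by the total count, an alternative added after seeing the data, gave a median of 0.009 (the median of the shifts of single genes was 0.623) and 2561 rising and 3893 falling genes, so that 39.7% of calls rose. The groups of libraries did not overlap in 6047 of the 6499 called genes, and in 45.5% of all genes tested.

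**Figure D2:**
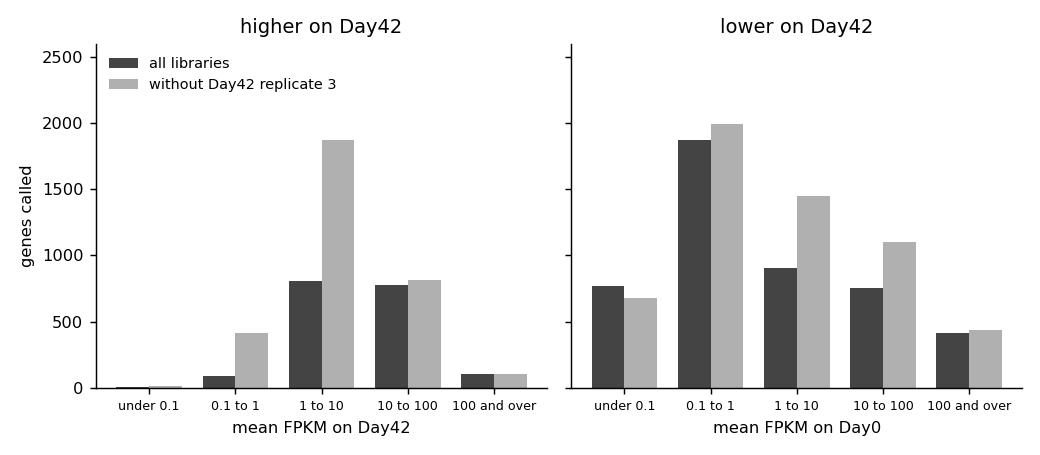
Number of genes that rose and fell (vertical axis) by mean FPKM on the day where the gene was higher (horizontal axis), with all libraries and without Day42 replicate 3. Falling calls are most numerous from 0.1 to 1 FPKM with all libraries, at 1876 genes, where 91 genes rose.

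What replicate 3 lacked was low and moderate transcripts. Among 1169 genes at 3 to 10 CPM in both Day42 replicates 1 and 2, 576 (49.3%) had no count in replicate 3. At 10 to 30 CPM the share was 30.6%, at 30 to 100 CPM 8.27%, and from 100 CPM 0.242%. The same share at 3 to 10 CPM was 4.35% for Day42 replicate 1 and 3.29% for replicate 2, each against the other libraries of the day, and the highest share in any Day0 library at 1 CPM or more was 1.11%. For Day42 replicates 1 and 2 this covers only genes at that level in replicate 3 too (253 and 243 genes). Those shares are therefore not like for like with the 49.3% and can understate zeros in replicates 1 and 2. This library had the largest total count of the 6, and the cause of its zeros was not tested. A zero in replicate 3 alone is accordingly given as measured, with the value of the gene in the other libraries beside it.

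**Figure D3:**
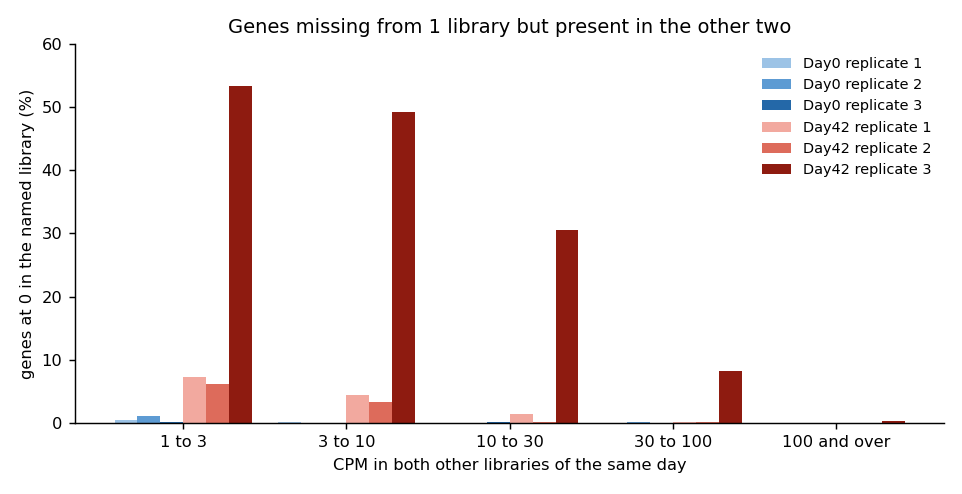
Percent of genes with no count in 1 library (vertical axis) by the CPM of the genes in the other libraries of that day (horizontal axis), with 1 bar for each of the 3 Day0 and 3 Day42 libraries. Bars of Day42 replicate 3 stand far above the others, at 49.3% for genes at 3 to 10 CPM.

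The libraries of the 2 days did not overlap for the 5 marker genes, as they did not for 45.5% of all genes tested. SCG2 (ENSG00000171951, chromosome 2, 223596940 to 223602361 of GRCh38), which encodes secretogranin II of neuroendocrine dense-core vesicles, had 0.163, 0.1096 and 0.224 FPKM on Day0 and 877, 955 and 816 FPKM on Day42. It rose by 11.67 ± 0.35 on the log2 scale (adjusted p = 2.01e-06; 11.69 and 7.65e-06 without replicate 3). DCX (ENSG00000077279, chromosome X, 111293779 to 111412272), which encodes the microtubule-binding protein doublecortin of young neurons, had 0.0409, 0.0628 and 0.0582 FPKM on Day0 and 101, 107 and 117 FPKM on Day42, and it rose by 10.23 ± 0.34 on the log2 scale (adjusted p = 3.33e-06; 10.13 and 7.65e-06 without replicate 3). DDC (ENSG00000132437, chromosome 7, 50458436 to 50564334), the decarboxylase of serotonin and dopamine synthesis, stood at 0 in all 3 Day0 libraries and 148, 104 and 111 FPKM on Day42, at least 1461-fold higher (adjusted p = 3.82e-05; at least 1494-fold and 2.61e-05 without replicate 3). No library of one day reached the range of the other for these 3 genes, and replicate 3 was as high as its companions.

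IL13RA2 (ENSG00000123496, chromosome X, 115003975 to 115018973), a decoy receptor for interleukin 13, had 0.03197, 0 and 0 FPKM on Day0 and 273, 319 and 492 FPKM on Day42. It rose by 14.19 ± 1.18 on the log2 scale (adjusted p = 0.000177; 13.89 and 4.01e-05 without replicate 3), with its highest level in replicate 3. POU5F1 (ENSG00000204531, chromosome 6, 31164337 to 31180731), the central pluripotency factor, had 115, 88.3 and 192 FPKM on Day0 and 0.0271, 0 and 0 FPKM on Day42. It fell by 14.31 ± 1.55 on the log2 scale (adjusted p = 0.00054; −13.76 and 0.000236 without replicate 3), and 1 Day42 library still held a trace. The markers were chosen with earlier results of these data known, so the side on which each lay describes it and does not test the labels.

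**Figure D4:**
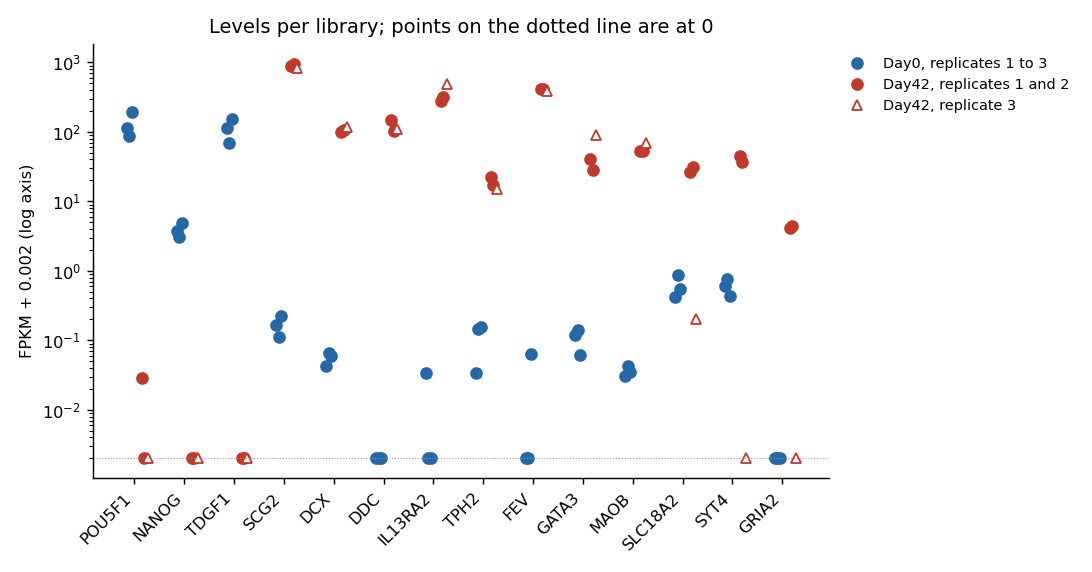
FPKM after adding 0.002 (vertical log axis) of 14 genes (horizontal axis) in each of the 3 Day0 (blue) and 3 Day42 (red) libraries, with Day42 replicate 3 as open triangles and values of 0 on the dotted line. SCG2, DCX, DDC and IL13RA2 are high in all Day42 libraries, POU5F1 is high in all Day0 libraries, and SLC18A2 is high in Day42 replicates 1 and 2 only.

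Genes of serotonin handling rose in part. Of 16 tested members, 8 rose (TPH1, TPH2, DDC, GCH1, SLC18A1, SLC18A2, SLC29A4 and MAOB) and 4 fell (PCBD1, SLC22A3, MAOA and AANAT), and without replicate 3 the same 8 rose and AANAT was no longer called. TPH2, the brain form of tryptophan hydroxylase and the site of the reporter, had 0.0315, 0.145 and 0.155 FPKM on Day0 and 22.2, 17.2 and 15.2 FPKM on Day42. It rose by 6.68 ± 1.04 on the log2 scale (adjusted p = 0.00236; 6.76 and 0.000626 without replicate 3). Its Day42 level was below that of DDC in every library. MAOB, which oxidises monoamines in mitochondria, had 0.0284, 0.0407 and 0.0336 FPKM on Day0 and 52.4, 52.6 and 68.2 FPKM on Day42 and rose by 9.95 ± 0.49 on the log2 scale (adjusted p = 3.45e-05; 9.77 and 1.36e-05 without replicate 3). MAOA, its paralog, had 0.07599, 0.124 and 0.304 FPKM on Day0 and 0, 0.00949 and 0 FPKM on Day42. It fell by 6.2 ± 1.63 on the log2 scale (adjusted p = 0.02; −5.67 and 0.0195 without replicate 3), a call lost in 5 of 17 alternatives, and its Day0 level was itself under 1 FPKM.

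The vesicular transporters depended on the library. SLC18A2, the neuronal vesicular monoamine transporter, had 0.414, 0.876 and 0.539 FPKM on Day0 and 26.4, 31.7 and 0.201 FPKM on Day42: high in replicates 1 and 2 and, in replicate 3, below every Day0 library. It rose by 4.26 ± 1.41 on the log2 scale (adjusted p = 0.0489; 4.83 and 0.00037 without replicate 3), and the call was lost in 11 of 17 alternatives. SLC18A1, the form of endocrine cells, showed the reverse, with 0 in all 3 Day0 libraries and 0, 1.19 and 18.97 FPKM on Day42, at least 107-fold higher (adjusted p = 0.035; at least 8.66-fold and 0.0373 without replicate 3), a call lost in 8 of 15. SLC6A4, the serotonin reuptake transporter, chosen after its values were seen, was at 0, 0 and 0.00674 FPKM on Day0 and 0 in all 3 Day42 libraries and did not pass the filter.

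Further genes of synthesis, the cofactor and uptake were called, all but SLC22A3 named after their values were seen. GCH1, the first enzyme of tetrahydrobiopterin synthesis, had 0.931, 0.539 and 1.31 FPKM on Day0 and 23.5, 21.01 and 3.22 FPKM on Day42, lowest in replicate 3, and rose by 3.37 ± 0.78 on the log2 scale (adjusted p = 0.0115; 3.85 and 0.000305 without replicate 3). TPH1, the hydroxylase of gut and pineal gland, had 0.00975, 0.0436 and 0.0514 FPKM on Day0 and 1.198, 2.49 and 0.82 FPKM on Day42 and rose by 4.7 ± 1.09 on the log2 scale (adjusted p = 0.0115; 4.97 and 0.00501 without replicate 3). SLC29A4, a low-affinity monoamine transporter, rose by 2.8 ± 0.85 on the log2 scale (adjusted p = 0.0358; 3.11 and 0.0138 without replicate 3), a call lost in 7 of 20 alternatives. PCBD1, which recycles the cofactor, fell by 1.18 ± 0.35 on the log2 scale (adjusted p = 0.0336; −1.3 and 0.00926 without replicate 3), lost in 14 of 20, and its libraries of the 2 days lay close, at 26.9, 28.5 and 25.7 FPKM on Day0 and 21.97, 14.6 and 21.6 FPKM on Day42. SLC22A3, another low-affinity transporter, had 0.303, 0.167 and 0.469 FPKM on Day0 and 0 in all 3 Day42 libraries, at least 9.96-fold lower (adjusted p = 0.00973, and 0.00955 without replicate 3). AANAT, an enzyme of melatonin synthesis, was lost without replicate 3 (adjusted p = 0.0504). Leaving out Day0 replicate 1, Day0 replicate 2 or Day21 replicate 3 left 5 rising members, leaving out Day0 replicate 3 left 1 falling, and leaving out Day0 replicate 1, any single Day21 library or Day42 replicate 2 left 2 falling.

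Of 15 tested factors of the serotonin lineage, 5 rose (FEV, GATA2, GATA3, NKX2-2 and EN1) and 2 fell, HMX2 among them. Without replicate 3, 18 were tested, 6 rose (FEV, GATA3, FOXA1, NKX2-2, EN1 and ST18) and the same 2 fell. FEV, which maintains serotonin identity, had 0, 0 and 0.0606 FPKM on Day0 and 412, 409 and 380.4 FPKM on Day42 and rose by 13.49 ± 1.4 on the log2 scale (adjusted p = 0.000458; 13.45 and 0.000141 without replicate 3). GATA3 had 0.119, 0.1405 and 0.0586 FPKM on Day0 and 40.4, 28.6 and 90.5 FPKM on Day42, highest in replicate 3, and rose by 8.24 ± 0.75 on the log2 scale (adjusted p = 0.000263; 7.57 and 6.88e-05 without replicate 3). EN1, a factor of the midbrain and anterior hindbrain, had 0 in all 3 Day0 libraries and 9.204, 6.56 and 18.6 FPKM on Day42, at least 130.3-fold higher (adjusted p = 0.000511; at least 86.6-fold and 0.00011 without replicate 3). These 3 kept their calls in all alternatives that tested them. NKX2-2, a factor of ventral progenitors, had 0 in all 3 Day0 libraries and 1.32, 4.73 and 0 FPKM on Day42, at least 16.2-fold higher (adjusted p = 0.0343; at least 24.3-fold and 0.000701 without replicate 3), lost in 11 of 19. GATA2, chosen after its values were seen, had 0, 0.0555 and 0.0331 FPKM on Day0 and 0.549, 0.293 and 4.86 FPKM on Day42. Its change of 5.38 ± 1.78 passed the test with all libraries (adjusted p = 0.0484). Its highest level was in replicate 3, and it was not called without that library (adjusted p = 0.101). With any single Day0 or Day21 library left out there were 3 rising factors.

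Of 14 serotonin receptor genes in the list, 6 were tested, 0 rose, and 3 fell (HTR1A, HTR1B and HTR3A); without replicate 3, HTR2C fell as well. HTR3A, the ligand-gated channel subunit, had 3.76, 3.14 and 5.23 FPKM on Day0 and 0 in all 3 Day42 libraries, at least 110.4-fold lower (adjusted p = 0.000591, and 0.000118 without replicate 3). HTR1A, the autoreceptor of serotonin neurons, was faint on Day0, with 0.0515, 0.1499 and 0.117 FPKM on Day0 and 0 in all 3 Day42 libraries, at least 4.83-fold lower (adjusted p = 0.0107, and 0.017 without replicate 3). HTR1B had 0.0842, 0.0808 and 0.157 FPKM on Day0 and 0 in all 3 Day42 libraries, at least 2.75-fold lower (adjusted p = 0.0128, and 0.0258 without replicate 3). In all, 9 of the 14 were at 0 in every Day42 library and 4 of the 14 in every Day0 library, with untested genes among them.

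Genes that mark other transmitters were not all low on Day42. Of 24 listed, 15 were tested. In all Day42 libraries 13 of the 24 were at 0, and in all Day0 libraries 6, with untested genes among them. Zeros were common on Day42, where the libraries had a count for 16077, 17101 and 10797 of 34961 genes. SLC17A8, the vesicular glutamate transporter VGLUT3, was the 1 that rose, with 0.04204, 0 and 0.0969 FPKM on Day0 and 24.9, 35.2 and 12.2 FPKM on Day42, and it rose by 8.31 ± 1.75 on the log2 scale (adjusted p = 0.0078; 8.6 and 0.00166 without replicate 3). In Day42 replicates 1 and 2 its level was above that of TPH2. SLC17A6, the transporter VGLUT2, had 0.0461, 0.0215 and 0.0488 FPKM on Day0 and 0 in all 3 Day42 libraries, at least 1.9-fold lower (adjusted p = 0.00425, and 0.00613 without replicate 3). SLC6A3, SLC17A7 and GAD2 fell too, and without replicate 3 the falling members were SLC6A3 and SLC17A6. Leaving out Day0 replicate 1 or 2, or Day21 replicate 1 or 2, also left 2. TH, the dopamine-synthesis hydroxylase, chosen after its values were seen, had 0.0132, 0 and 0.0391 FPKM on Day0 and 8.197, 10.2 and 0 FPKM on Day42. Its change of 7.74 ± 2.97 was not called with all libraries (adjusted p = 0.0813) and was called without replicate 3 (8.3, adjusted p = 0.00675).

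Summed over all members of the list, FPKM of other transmitter genes was 5.33 to 6.93 on Day0 and 12.2 to 48.9 on Day42, with the lowest Day42 sum in replicate 3. The sum over serotonin handling genes was 79.1 to 112 FPKM on Day0 and 366 to 431 on Day42, and that over serotonin lineage factors, mostly FEV, was 1.04 to 1.502 FPKM on Day0 and 455 to 496 FPKM on Day42.

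Dense-core vesicles carry peptides and amines, and granins with prohormone convertases are their cargo and enzymes. Of 19 tested genes of this class, 13 rose and 0 fell, with a median change of 4.66, against −0.57 over all genes tested. Without replicate 3, 15 of 19 rose (median 4.74) and 0 fell. CHGB, a granin, had 0.4204, 0.593 and 0.573 FPKM on Day0 and 153, 166 and 140.2 FPKM on Day42 and rose by 7.47 ± 0.32 on the log2 scale (adjusted p = 1.52e-05; 7.5 and 1.73e-05 without replicate 3). PCSK1, a convertase that cuts prohormones, had 0.134, 0.267 and 0.116 FPKM on Day0 and 113, 119 and 95.8 FPKM on Day42 and rose by 8.58 ± 0.52 on the log2 scale (adjusted p = 6.3e-05; 8.64 and 3.97e-05 without replicate 3). VGF, a granin-like precursor, had 0.191, 0.0827 and 0.0876 FPKM on Day0 and 16.2, 26.4 and 15.8 FPKM on Day42 and rose by 6.56 ± 0.78 on the log2 scale (adjusted p = 0.000805; 6.66 and 0.000327 without replicate 3). With SCG2, these genes were high in every Day42 library, replicate 3 included.

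Members chosen after their values were seen show where replicate 3 made the difference. CHGA, chromogranin A, had 0.848, 0.495 and 1.31 FPKM on Day0 and 5.16, 5.06 and 2.79 FPKM on Day42. Its change of 1.59 ± 0.66 was not called (adjusted p = 0.104), and was called without replicate 3 (1.81, adjusted p = 0.0248). SYT4, a vesicle synaptotagmin, had 0.6003, 0.759 and 0.4302 FPKM on Day0 and 44.8, 36.7 and 0 FPKM on Day42, with an adjusted p of 0.111, and 5.94e-05 without replicate 3. PCSK2, a further convertase, had 0, 0 and 0.04101 FPKM on Day0 and 2.05, 0.808 and 0 FPKM on Day42, with an adjusted p of 0.152, and 0.0221 without replicate 3. The last pair had no count in replicate 3.

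The promoters of the granin class were searched for the palindrome TGACGTCA, the full cyclic-AMP response element. It reads the same on both strands. Promoters were the 250 bases before the start in the RefSeq promoter table for GRCh38.p14, and 578 of all 35116 promoters (1.65%) held the motif. Of 15 granin-class genes with an entry (counted as genes, where the 1.65% counts promoters), 3 held it: PCSK1, VGF and CHGA. They are shown because 2 of them rose in both fits and CHGA did so without replicate 3. Each line gives the last 110 bases before the start, 5′ to 3′ on the gene's strand, with the motif in capitals.
PCSK1: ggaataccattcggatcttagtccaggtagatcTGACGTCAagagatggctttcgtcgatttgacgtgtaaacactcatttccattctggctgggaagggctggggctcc
VGF: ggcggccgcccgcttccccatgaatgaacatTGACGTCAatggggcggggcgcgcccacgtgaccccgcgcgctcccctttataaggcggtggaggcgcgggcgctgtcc
CHGA: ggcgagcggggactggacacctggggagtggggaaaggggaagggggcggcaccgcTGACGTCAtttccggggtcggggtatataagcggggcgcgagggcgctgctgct
The PCSK1 stretch is chr5:96433249-96433358 on the minus strand, with the motif 77 to 70 bases before the start given by RefSeq. It lies inside the PCSK1 gene model that was counted, which spans 96390333 to 96434143. VGF is chr7:101165570-101165679 on the minus strand, with the motif at 79 to 72, and CHGA is chr14:92923040-92923149 on the plus strand, with the motif at 54 to 47. A match describes these letters and is not evidence of binding. The octamer ATGCAAAT, searched on both strands, was in 573 promoters (1.63%) and in 0 of the 13 pluripotency genes with an entry.

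Neuropeptide genes went both ways. Of 26 tested, 5 rose (TAC1, PENK, CRH, UTS2 and PTHLH) and 11 fell. Without replicate 3, 27 were tested, 5 rose (TRH in place of PENK) and 10 fell. UTS2, urotensin II, had 0, 0.0411 and 0 FPKM on Day0 and 73.9, 93.9 and 88.7 FPKM on Day42 and rose by 11.78 ± 1.95 on the log2 scale (adjusted p = 0.0029; 11.7 and 0.000821 without replicate 3). CRH, corticotropin-releasing hormone, chosen after its values were seen like the next 3, had 0.0329, 0.116 and 0 FPKM on Day0 and 101, 145 and 29.6 FPKM on Day42, lowest in replicate 3, and rose by 9.88 ± 1.45 on the log2 scale (adjusted p = 0.00193; 10.29 and 0.000265 without replicate 3). TAC1, the substance P precursor, was present on both days, with 5.17, 7.61 and 5.53 FPKM on Day0 and 182, 204 and 229 FPKM on Day42, and rose by 4.37 ± 0.33 on the log2 scale (adjusted p = 0.000133; 4.24 and 6.88e-05 without replicate 3). PENK, proenkephalin, had 0.278, 0.534 and 0.335 FPKM on Day0 and 2.89, 1.26 and 11.98 FPKM on Day42. It was called with all libraries (adjusted p = 0.0424) and not without replicate 3 (0.0812), and PTHLH, at 0 in all 3 Day0 libraries and 1.82, 1.65 and 0 FPKM on Day42, lost its call in 9 of 16 alternatives.

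Among the peptides that fell, TAC3, neurokinin B, had 11.3, 11.3 and 8.65 FPKM on Day0 and 0 in all 3 Day42 libraries, at least 164-fold lower (adjusted p = 0.00047, and 9.68e-05 without replicate 3). NPY, neuropeptide Y, had 4.13, 2.91 and 1.53 FPKM on Day0 and 0 in all 3 Day42 libraries, at least 26.3-fold lower (adjusted p = 0.00375, and 0.00305 without replicate 3). GAL, galanin, chosen after its values were seen, remained on Day42, with 233, 175 and 210.3 FPKM on Day0 and 63.4, 43.5 and 58.4 FPKM on Day42, and fell by 2.61 ± 0.31 on the log2 scale (adjusted p = 0.000796; −2.69 and 0.000757 without replicate 3). With any single Day0 or Day21 library left out there were 3 rising neuropeptide genes.

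Most cytoskeletal genes of growing axons rose. Of 29 tested microtubule and growth cone genes, 22 rose and 0 fell (median 3.11), and without replicate 3, 24 rose and 1, MAP7, fell (median 3.23). STMN2, a tubulin-binding stathmin of growth cones, had 0.841, 0.827 and 0.872 FPKM on Day0 and 875, 963 and 1170.1 FPKM on Day42 and rose by 9.5 ± 0.25 on the log2 scale (adjusted p = 2.01e-06; 9.33 and 3.95e-06 without replicate 3). STMN4, its paralog, had 0.187, 0.287 and 0.235 FPKM on Day0 and 369, 334 and 300.4 FPKM on Day42 and rose by 9.74 ± 0.39 on the log2 scale (adjusted p = 1.13e-05; 9.78 and 1.43e-05 without replicate 3). GAP43, a growth cone membrane protein chosen after its values were seen, was among the most abundant, with 22.9, 36.8 and 14.8 FPKM on Day0 and 2345, 1948 and 1835 FPKM on Day42, and rose by 5.64 ± 0.43 on the log2 scale (adjusted p = 0.000137; 5.68 and 0.000126 without replicate 3). All 3 had similar levels in the 3 Day42 libraries.

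MAPT, the axonal protein tau, had 0.00739, 0.00303 and 0.0382 FPKM on Day0 and 1.69, 1.605 and 7.38 FPKM on Day42, highest in replicate 3, and rose by 7.12 ± 1.2 on the log2 scale (adjusted p = 0.00312; 5.93 and 0.00174 without replicate 3). MAP2, of dendrites, had 0.14, 0.038 and 0.239 FPKM on Day0 and 20.4, 27.7 and 10.7 FPKM on Day42, lowest in replicate 3, and rose by 6.41 ± 0.72 on the log2 scale (adjusted p = 0.000624; 6.68 and 0.00026 without replicate 3). TUBB3, the neuronal β-tubulin, was already present on Day0, with 8.33, 3.42 and 13.6 FPKM on Day0 and 97.8, 19.1 and 72.6 FPKM on Day42. Its change was 2.25 ± 0.74 on the log2 scale (adjusted p = 0.0474; 2.11 and 0.0648 without replicate 3), so that it was not called without replicate 3, and its call was lost in 13 of 20 alternatives.

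Of 8 intermediate filament genes, 4 rose in both fits (NEFL, NEFM, INA and VIM), and PRPH and GFAP fell in both, NES without replicate 3 as well. PRPH had only 0.0513, 0.0856 and 0.0628 FPKM on Day0, and GFAP was faint there too. NEFL, the light neurofilament, had 3.91, 4.53 and 6.14 FPKM on Day0 and 365, 361 and 362 FPKM on Day42 and rose by 5.54 ± 0.24 on the log2 scale (adjusted p = 1.52e-05; 5.5 and 2.33e-05 without replicate 3). INA, internexin, had 0.7802, 0.526 and 1.76 FPKM on Day0 and 77.8, 70.7 and 87.7 FPKM on Day42 and rose by 5.61 ± 0.5 on the log2 scale (adjusted p = 0.00023; 5.49 and 0.000162 without replicate 3). VIM, vimentin, which progenitors and many other cells also make, had 8.37, 6.79 and 10.9 FPKM on Day0 and 58.1, 66.6 and 93.4 FPKM on Day42 and rose by 2.38 ± 0.27 on the log2 scale (adjusted p = 0.000605; 2.11 and 0.00043 without replicate 3).

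Neuronal RNA-binding proteins, which shape splicing and transcript stability, rose in 12 of 22 tested genes, and 2 fell (RBFOX1 and PTBP1). Without replicate 3, 15 rose and RBFOX1 fell. ELAVL4 had 0.00613, 0 and 0.0146 FPKM on Day0 and 8.92, 6.89 and 7.89 FPKM on Day42 and rose by 9.41 ± 1.2 on the log2 scale (adjusted p = 0.00112; 9.37 and 0.000233 without replicate 3). ELAVL3 had 0 in all 3 Day0 libraries and 3.37, 1.04 and 0.359 FPKM on Day42, at least 29.5-fold higher (adjusted p = 0.00315; at least 40.7-fold and 0.000749 without replicate 3). CELF4 had 0.195, 0.191 and 0.244 FPKM on Day0 and 27.1, 21.8 and 9.69 FPKM on Day42 and rose by 5.79 ± 0.5 on the log2 scale (adjusted p = 0.000202; 6.1 and 1.73e-05 without replicate 3). RBFOX1 went the other way, with 0.105, 0.103 and 0.0954 FPKM on Day0 and 0 in all 3 Day42 libraries, at least 16.4-fold lower (adjusted p = 0.00498, and 0.00495 without replicate 3).

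Of 25 motor genes of axonal transport, 9 rose and DYNLL1 fell, and without replicate 3, 12 rose and DYNLL1 fell. KIFAP3, which links the kinesin-2 motor to cargo, had 0.633, 0.378 and 0.495 FPKM on Day0 and 99.9, 112 and 68.3 FPKM on Day42 and rose by 6.8 ± 0.36 on the log2 scale (adjusted p = 4.01e-05; 6.96 and 1.82e-05 without replicate 3). DYNC1I1, a dynein intermediate chain, had 0.05402, 0.139 and 0.1402 FPKM on Day0 and 10.4, 19.8 and 42.5 FPKM on Day42, highest in replicate 3, and rose by 7.07 ± 0.77 on the log2 scale (adjusted p = 0.000558; 6.31 and 0.000146 without replicate 3).

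At the synapse, the count of called genes differed with replicate 3, as it did over all genes (1778 rising with all libraries, 3220 without it). Of 41 tested genes of synaptic vesicles and release, 15 rose and 1, SYNGR1, fell (median 2.22). Without it, 26 of 42 rose and 2 (SYNGR1 and SYPL1) fell (median 2.19), against 4 falling without Day42 replicate 2. In 13 of the 44 listed genes replicate 3 had no count while both companions did. Over all genes at 3 to 10 CPM in both companions, 49.3% had no count in replicate 3. SNAP25, a SNARE protein of vesicle fusion, had 0.0672, 0.06505 and 0.117 FPKM on Day0 and 251, 243 and 283 FPKM on Day42 and rose by 10.86 ± 0.32 on the log2 scale (adjusted p = 2.01e-06; 10.75 and 4.95e-06 without replicate 3). VAMP2, its vesicle partner, had 2.4, 2.104 and 3.25 FPKM on Day0 and 127, 129 and 152 FPKM on Day42 and rose by 5.03 ± 0.26 on the log2 scale (adjusted p = 3.96e-05; 4.9 and 1.82e-05 without replicate 3). SYT1, the calcium sensor of release, had 1.4, 1.49 and 3.85 FPKM on Day0 and 69.8, 91.1 and 87.4 FPKM on Day42 and rose by 4.55 ± 0.47 on the log2 scale (adjusted p = 0.000463; 4.46 and 0.00044 without replicate 3).

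SNAP91, a clathrin adaptor, had 0.117, 0.0516 and 0.185 FPKM on Day0 and 9.22, 7.88 and 12.96 FPKM on Day42 and rose by 5.69 ± 0.65 on the log2 scale (adjusted p = 0.00067; 5.42 and 0.00028 without replicate 3). SYNGR1, synaptogyrin 1, chosen after its values were seen, had 5.46, 5.96 and 5.49 FPKM on Day0 and 1.2, 1.46 and 1.84 FPKM on Day42 and fell by 2.61 ± 0.38 on the log2 scale (adjusted p = 0.00188; −2.83 and 0.000416 without replicate 3). Adhesion and postsynaptic genes rose in 13 of 35 tested and fell in 3 (CNTNAP2, DLG4 and DLGAP3), and without replicate 3 in 16 and the same 3 of 36. CAMK2N1, an inhibitor of the calcium kinase CaMKII, had 0.203, 0.482 and 0.264 FPKM on Day0 and 55.3, 74.9 and 44.2 FPKM on Day42 and rose by 6.79 ± 0.48 on the log2 scale (adjusted p = 0.000118; 6.92 and 4.01e-05 without replicate 3). The 3 falling members numbered 1 without Day0 replicate 3 and 1 with total scaling.

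Channel and receptor genes were called in part, and the counts of called genes moved with single libraries. Sodium, calcium and HCN channels rose in 7 of 29 (SCN2A, SCN3A, SCN3B, SCN9A, CACNA1A, CACNB1 and NALCN) and fell in 4, among them SCN2B, SCN4B and CACNA1D. The rising count was 12 without replicate 3, but 2, 4 and 3 without Day0 replicate 1, 2 or 3, and 4 without Day21 replicate 2. SCN3A, a sodium channel of developing neurons, had 0.00488, 0 and 0 FPKM on Day0 and 2.59, 7.41 and 0 FPKM on Day42, with a change of 9.8 ± 2.98 (adjusted p = 0.0357) that was lost in 8 of 16 alternatives and called without replicate 3 (10.46, 0.000614). Potassium channels rose in 8 of 27 tested and fell in 2 (KCNK2 and KCNN3), and rose in 12 of 31 without replicate 3, with 5 falling without Day42 replicate 2. KCND3, an A-type channel, had 0.00717, 0.0253 and 0.00635 FPKM on Day0 and 4.87, 1.605 and 5.45 FPKM on Day42 and rose by 7.5 ± 1.02 on the log2 scale (adjusted p = 0.00143; 7.16 and 0.000665 without replicate 3).

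Subunits of transmitter receptors rose in 8 of 32 (GRIA2, GRIA4, GRIK2, GRIK4, GRM7, GABRA2, GLRA2 and GLRB) and fell in 2, GRIK3 among them, and without replicate 3 rose in 15 of 33 and fell in 3. With any single Day0 library left out, 5 rose. GLRA2, a glycine receptor subunit of the developing brain, had 0 in all 3 Day0 libraries and 14.2, 23.4 and 6.67 FPKM on Day42, at least 210.4-fold higher (adjusted p = 0.00132; at least 265-fold and 0.000582 without replicate 3). GRM7, a presynaptic glutamate receptor, had 0.00558, 0.00496 and 0.0314 FPKM on Day0 and 5.498, 6.46 and 8.27 FPKM on Day42 and rose by 8.17 ± 1.08 on the log2 scale (adjusted p = 0.00129; 7.94 and 0.000693 without replicate 3). GRIA2, an AMPA receptor subunit, had 0 in all 3 Day0 libraries and 4.14, 4.36 and 0 FPKM on Day42, at least 97.1-fold higher (adjusted p = 0.0267; at least 146-fold and 9.4e-05 without replicate 3), and its call was lost in 7 of 16 alternatives.

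Axon guidance ligands and receptors rose in 11 of 37 and fell in 2 (PLXNB1 and SEMA3D), and without replicate 3 rose in 16 of 39 with the same 2 falling, or 5 without Day42 replicate 1 or 2. The rising count was 6 without Day0 replicate 1 and 7 without Day0 replicate 3. SEMA6D, a semaphorin, had 0.0631, 0.08398 and 0.125 FPKM on Day0 and 9.22, 10.4 and 6.102 FPKM on Day42 and rose by 5.83 ± 0.51 on the log2 scale (adjusted p = 0.000226; 5.99 and 4.38e-05 without replicate 3). PLXNB1, a semaphorin receptor, had 0.532, 0.322 and 0.673 FPKM on Day0 and 0 in all 3 Day42 libraries, at least 49.3-fold lower (adjusted p = 0.000795, and 0.000168 without replicate 3).

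**Figure D5:**
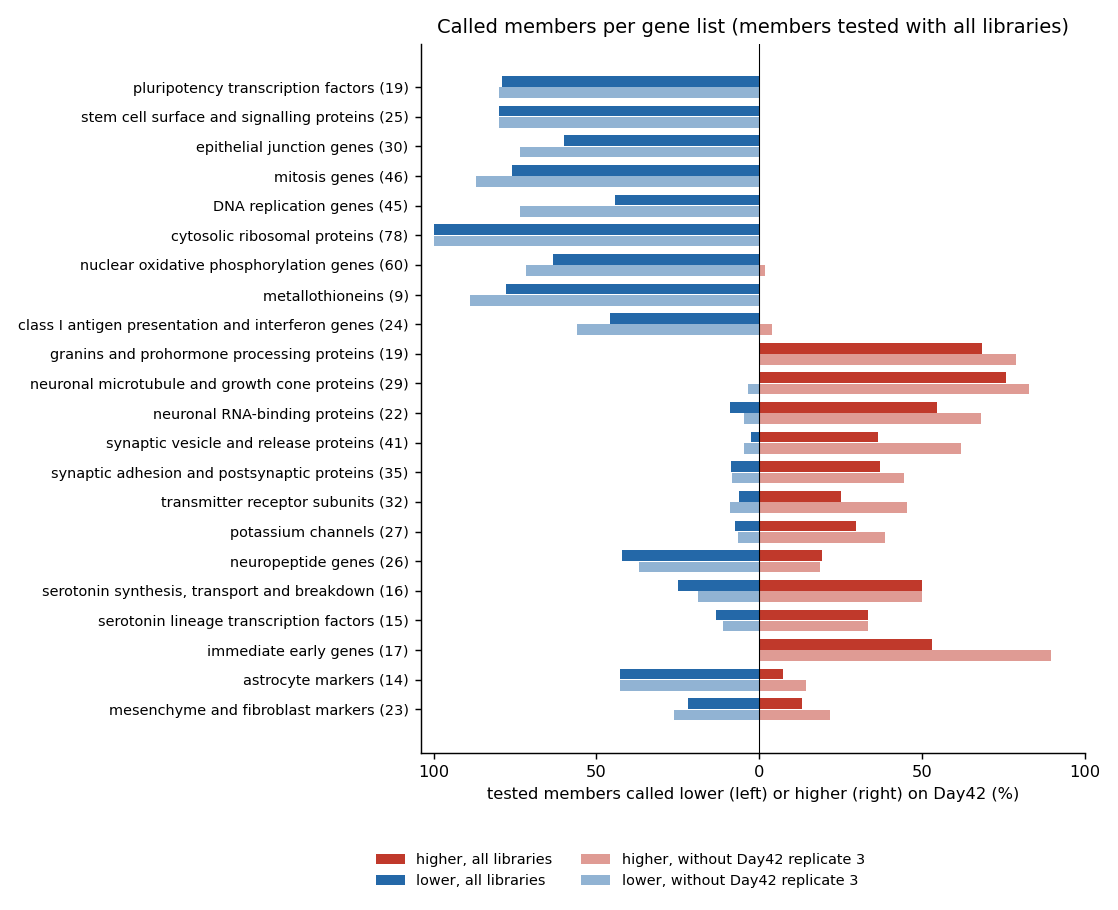
Share of tested members that rose (right of 0) and fell (left of 0) in each of 22 gene lists (vertical axis, with the members tested), in percent of tested members (horizontal axis), with all libraries (dark bars) and without Day42 replicate 3 (light bars). Granin, microtubule and immediate early lists reach to the right with 0 falling with all libraries, and all 78 ribosomal protein genes reach to the left.

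Immediate early genes, which respond to stimulation within minutes, rose in 9 of 17 tested (FOS, FOSL1, JUN, JUNB, EGR1, EGR2, IER2, DUSP1 and KLF2) and fell in 0, and without replicate 3 in 17 of 19. EGR1 had 0.296, 0.279 and 0.185 FPKM on Day0 and 58.02, 82.5 and 70.4 FPKM on Day42 and rose by 7.38 ± 0.58 on the log2 scale (adjusted p = 0.000148; 7.34 and 9.93e-05 without replicate 3). FOS had 1.25, 1.19 and 1.301 FPKM on Day0 and 154, 134 and 133 FPKM on Day42 and rose by 6.1 ± 0.34 on the log2 scale (adjusted p = 4.39e-05; 6.1 and 3.09e-05 without replicate 3). EGR2, also a hindbrain patterning factor, had 0.113, 0.255 and 0.288 FPKM on Day0 and 24.01, 14.6 and 33.2 FPKM on Day42 and rose by 6.11 ± 0.59 on the log2 scale (adjusted p = 0.000348; 5.75 and 0.000116 without replicate 3). The 3 genes were high in all Day42 libraries.

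Stress genes split. Of 22 genes of the integrated stress and unfolded protein responses, 5 rose in both fits (ATF3, DDIT3, PPP1R15A, DNAJB9 and HERPUD1), while HSPA5, SDF2L1 and PDIA6 fell, with PDIA4 besides without replicate 3. PPP1R15A, a phosphatase subunit that restores translation, had 1.05, 0.777 and 2.76 FPKM on Day0 and 96.7, 114 and 39.5 FPKM on Day42, lowest in replicate 3 on Day42, and rose by 5.09 ± 0.65 on the log2 scale (adjusted p = 0.00113; 5.41 and 0.000349 without replicate 3). DDIT3, a transcription factor of the response, had 11.6, 16.1 and 9.67 FPKM on Day0 and 184, 138 and 239 FPKM on Day42 and rose by 3.2 ± 0.38 on the log2 scale (adjusted p = 0.000775; 2.95 and 0.000456 without replicate 3). Of 19 chaperone and ubiquitin genes, HSPH1 rose and HSPA8, HSPD1, HSPE1, HSPB1 and UBB fell, and 1 fell with total scaling. UBB, a ubiquitin gene, had 1737, 1176 and 610.1 FPKM on Day0 and 851, 558 and 863 FPKM on Day42, so that its days overlapped, and its call was lost in 14 of 20 alternatives. HSPE1, the mitochondrial chaperonin partner, had 1146, 1213 and 717 FPKM on Day0 and 167, 183 and 166 FPKM on Day42 and fell by 3.3 ± 0.39 on the log2 scale (adjusted p = 0.000746; −3.31 and 0.0014 without replicate 3).

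Hypoxia targets showed 1 gene out of scale with the rest. STC1, a secreted glycoprotein, had 10.7, 14.7 and 11.2 FPKM on Day0 and 865, 925 and 751 FPKM on Day42 and rose by 5.41 ± 0.21 on the log2 scale (adjusted p = 9.14e-06; 5.45 and 1.73e-05 without replicate 3). The list rose in 3 of 18 (STC1, BNIP3L and PDK1) and fell in 3 (CA9, ANGPTL4 and HK2), and without replicate 3 rose in 5 and fell in 5, as many as fell without Day42 replicate 2. Its median change was −0.59 with TMM and 0.12 with total scaling. CA9, ANGPTL4 and HK2 were each under 1 FPKM in every Day0 library, and the call of HK2 was lost in 12 of 17 alternatives. Of 18 p53 target and death genes, TNFRSF10B and MCL1 rose and FAS fell, and without replicate 3, 4 rose and 4 fell. Leaving out Day0 replicate 1, Day0 replicate 2 or any single Day21 library left 1 rising member, and the call of TNFRSF10B was lost in 10 of 20 alternatives.

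Among abundant protein-coding genes with the largest rises, several belong to no list above. CRYBA2, a crystallin, had 0, 0.06804 and 0 FPKM on Day0 and 246, 196 and 234 FPKM on Day42 and rose by 12.32 ± 1.58 on the log2 scale (adjusted p = 0.00115; 12.25 and 0.000338 without replicate 3). DIRAS3, an imprinted small GTPase, had 0.0386, 0 and 0.0244 FPKM on Day0 and 153, 108 and 117 FPKM on Day42 and rose by 11.64 ± 1.06 on the log2 scale (adjusted p = 0.000267; 11.67 and 6.75e-05 without replicate 3). CRHBP, which binds the peptide of CRH, had 0, 0 and 0.0191 FPKM on Day0 and 44.7, 43.2 and 24.6 FPKM on Day42 and rose by 11.66 ± 1.29 on the log2 scale (adjusted p = 0.000588; 11.81 and 8.08e-05 without replicate 3). CGA, the shared α-subunit of pituitary and placental hormones, varied more between libraries, with 0 in all 3 Day0 libraries and 34.8, 8.87 and 11.03 FPKM on Day42, at least 142-fold higher (adjusted p = 0.00642; at least 168-fold and 0.00288 without replicate 3). NME1-NME2, a readthrough model that overlaps both of its parent genes, had 0 in all 3 Day0 libraries and 105, 92.3 and 44.5 FPKM on Day42, at least 389-fold higher (adjusted p = 9.41e-05; at least 470.4-fold and 2.24e-05 without replicate 3), and the counting could have divided its reads.

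The rise of IL13RA2 stood beside few calls in its class. Of 19 tested interleukin receptor genes, IL13RA2 and IL10RB rose and IL17RA and IL1RAP fell. Without replicate 3, 5 rose (IL6ST, LIFR and IFNAR2 besides), and 4 rose with total scaling. Without Day42 replicate 2, 5 fell. The summed level of the list was 22.2 to 29.9 FPKM on Day0 and 340.1 to 570.5 on Day42, most of it IL13RA2.

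Most of the pluripotency circuit fell. Of 19 tested factors, 15 fell and 0 rose, with 10 of the 20 listed at 0 in all Day42 libraries. The median change was −13.12, or −7.29 when genes at 0 were set to their bound, and without replicate 3, 16 of 20 fell (median −13.07). NANOG, a partner of POU5F1, had 3.74, 3.103 and 4.796 FPKM on Day0 and 0 in all 3 Day42 libraries, at least 206-fold lower (adjusted p = 0.00942, and 0.00472 without replicate 3). HESX1, a homeobox factor, had 48.3, 23.3 and 19.7 FPKM on Day0 and 0 in all 3 Day42 libraries, at least 466-fold lower (adjusted p = 0.00047, and 0.00024 without replicate 3). OTX2, of stem cells and the anterior brain, had 21.7, 38.8 and 24.9 FPKM on Day0 and 0 in all 3 Day42 libraries, at least 958-fold lower (adjusted p = 0.000119, and 4.06e-05 without replicate 3).

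ZFP42, also called REX1, had 7.08, 5.69 and 11.9 FPKM on Day0 and 0 in all 3 Day42 libraries, at least 213-fold lower (adjusted p = 0.00251, and 0.000519 without replicate 3). SOX2, which neural progenitors keep, declined unevenly, with 11.1, 9.93 and 14.2 FPKM on Day0 and 2.47, 0.717 and 0.009204 FPKM on Day42. It fell by 4.17 ± 1.34 on the log2 scale (adjusted p = 0.0439; −3.59 and 0.00179 without replicate 3), a call lost in 11 of 19 alternatives. LIN28A, an RNA-binding protein that blocks let-7 maturation, had 11.3, 18.4 and 23.9 FPKM on Day0 and 0, 0 and 0.0128 FPKM on Day42 and fell by 12.17 ± 1.43 on the log2 scale (adjusted p = 0.000759; −15.64 and 8.08e-05 without replicate 3). Of 10 oncofetal RNA regulators LIN28A was the 1 that fell and DICER1 rose, and without replicate 3 IGF2BP1 and CPSF6 fell as well.

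Surface and signalling genes of stem cells fell in 20 of 25 in both fits, with 0 rising. The falling count was 15 with any single Day0 library left out, and 15 with total scaling. TDGF1, a Nodal co-receptor, had 115, 69.97 and 155 FPKM on Day0 and 0 in all 3 Day42 libraries, at least 2779-fold lower (adjusted p = 0.000355, and 0.000101 without replicate 3). SFRP2, a secreted Wnt modulator, had 36.1, 33.3 and 48.2 FPKM on Day0 and 0 in all 3 Day42 libraries, at least 771-fold lower (adjusted p = 6.3e-05, and 2.1e-05 without replicate 3). USP44, a deubiquitinase, had 17.9, 22.4 and 27.7 FPKM on Day0 and 0 in all 3 Day42 libraries, at least 1198-fold lower (adjusted p = 4.43e-05, and 1.73e-05 without replicate 3). DNA methylation genes followed suit in part: DNMT1, DNMT3B, UHRF1 and TDG fell among 11 and GADD45A rose, and without replicate 3 TET1 fell and TET2 rose besides. DNMT3B, a de novo methyltransferase, had 10.6, 12.2 and 21.1 FPKM on Day0 and 0, 0.01201 and 0 FPKM on Day42 and fell by 12.39 ± 1.36 on the log2 scale (adjusted p = 0.000558; −11.84 and 9.65e-05 without replicate 3). DNMT1, which copies methylation at replication, stayed measurable, with 14.4, 15 and 20.8 FPKM on Day0 and 3.16, 3.48 and 5.88 FPKM on Day42, and fell by 2.68 ± 0.31 on the log2 scale (adjusted p = 0.000683; −3.06 and 8.06e-05 without replicate 3).

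UHRF1, which guides DNMT1 to replicating DNA, had 1.74, 0.418 and 3.83 FPKM on Day0 and 0 in all 3 Day42 libraries, at least 98.8-fold lower (adjusted p = 0.00135, and 0.00116 without replicate 3). GADD45A, a growth arrest gene, moved up, with 8.302, 10.3 and 8.77 FPKM on Day0 and 142, 146 and 209.7 FPKM on Day42, and rose by 3.49 ± 0.28 on the log2 scale (adjusted p = 0.000156; 3.24 and 4.95e-05 without replicate 3). Epithelial junction genes fell in 18 of 30 (22 without replicate 3) and rose in 0. CDH1, E-cadherin, had 4.397, 4.46 and 6.41 FPKM on Day0 and 0.0499, 0.01197 and 0.0471 FPKM on Day42 and fell by 7.73 ± 0.91 on the log2 scale (adjusted p = 0.000785; −7.97 and 0.000457 without replicate 3). CLDN10, a tight junction claudin, had 17.1, 21.7 and 10.8 FPKM on Day0 and 0 in all 3 Day42 libraries, at least 565-fold lower (adjusted p = 0.000318, and 0.000145 without replicate 3). CDH2, the N-cadherin of neural cells, had 0.554, 0.689 and 0.8402 FPKM on Day0 and 8.25, 11.5 and 18.5 FPKM on Day42 and rose by 3.52 ± 0.42 on the log2 scale (adjusted p = 0.000858; 3.09 and 0.000188 without replicate 3).

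Other abundant protein-coding genes with the largest falls were at 0 in every Day42 library. CAVIN3, a caveolar coat protein, had 131, 137 and 97.2 FPKM on Day0 and 0 in all 3 Day42 libraries, at least 1906-fold lower (adjusted p = 7.08e-05, and 3.24e-05 without replicate 3). APOC1, an apolipoprotein, had 110.5, 71.1 and 87.8 FPKM on Day0 and 0 in all 3 Day42 libraries, at least 1109.6-fold lower (adjusted p = 0.000177, and 9.64e-05 without replicate 3). NMRK2, a nicotinamide riboside kinase, had 64.8, 60.9 and 68.1 FPKM on Day0 and 0 in all 3 Day42 libraries, at least 733-fold lower (adjusted p = 0.000967, and 0.000511 without replicate 3). TENT5B was at 24.9, 18.5 and 87.7 FPKM on Day0 and C9orf135 at 66.3, 68.6 and 49.5. In all, 75 genes with a mean of 10 FPKM or more on Day0 fell to 0 in all Day42 libraries.

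Mitosis genes mostly fell and replication genes fell in part, and more of both did so without replicate 3. Mitosis genes fell in 35 of 46 (median −8.16) and in 40 of 46 without it, and replication genes in 20 of 45 (median −3.63) and 33 of 45, with 0 rising in any of these counts. BUB1, of the spindle checkpoint, had 5.84, 5.43 and 6.35 FPKM on Day0 and 0 in all 3 Day42 libraries, at least 368-fold lower (adjusted p = 0.000102, and 1.73e-05 without replicate 3). MKI67, the proliferation marker, had 2.501, 2.25 and 3.43 FPKM on Day0 and 0.008405, 0.00429 and 0.00397 FPKM on Day42 and fell by 9.55 ± 0.57 on the log2 scale (adjusted p = 5.91e-05; −9.37 and 3.36e-05 without replicate 3). TOP2A, a topoisomerase of dividing cells, had 11.3, 15.3 and 13.6 FPKM on Day0 and 0.0253, 0.241 and 0.00381 FPKM on Day42 and fell by 7.95 ± 1.33 on the log2 scale (adjusted p = 0.00294; −7.4 and 0.000599 without replicate 3). The trace of TOP2A was highest in Day42 replicate 2.

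TK1, the thymidine kinase of S phase, had 56.7, 43.8 and 56.5 FPKM on Day0 and 0, 0.0284 and 0 FPKM on Day42 and fell by 12.93 ± 1.19 on the log2 scale (adjusted p = 0.000276; −12.38 and 5.94e-05 without replicate 3). CHAF1A, which assembles nucleosomes on new DNA, had 15.5, 14.6 and 25.2 FPKM on Day0 and 0 in all 3 Day42 libraries, at least 780.1-fold lower (adjusted p = 6.3e-05, and 2.61e-05 without replicate 3). Genes of cell cycle exit rose in 5 of 18 (CDKN1A, CDKN2D, BTG1, GADD45A and GADD45B) and fell in 3 (CDKN2A, RBL1 and CCND2), and without replicate 3, 8 rose and the same 3 fell. CDKN2A and RBL1 were under 1 FPKM in every Day0 library, and the call of RBL1 was lost in 12 of 17 alternatives. CDKN2D, an inhibitor of the G1 kinases, had 3.73, 4.78 and 4.17 FPKM on Day0 and 174, 174 and 213 FPKM on Day42 and rose by 4.77 ± 0.32 on the log2 scale (adjusted p = 9.41e-05; 4.62 and 3.68e-05 without replicate 3). CCND2, a cyclin that activates them, had 13.8, 16.8 and 9.41 FPKM on Day0 and 0.0999, 0 and 0.0655 FPKM on Day42 and fell by 8.59 ± 1.45 on the log2 scale (adjusted p = 0.0031; −8.77 and 0.00253 without replicate 3).

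All 78 cytosolic ribosomal protein genes fell in both fits, with a median change of −2.79 (−3.02 without replicate 3), and 76 fell with total scaling. Their share of all counts was 8.69% to 10.5% on Day0 and 1.79% to 2.16% on Day42. RPS19, of the small subunit, had 704, 460.5 and 680.4 FPKM on Day0 and 79.97, 64.1 and 50.4 FPKM on Day42 and fell by 3.96 ± 0.3 on the log2 scale (adjusted p = 0.000133; −3.83 and 0.000236 without replicate 3). RPL37, of the large subunit, had 223, 183 and 111 FPKM on Day0 and 18.7, 18.7 and 12.2 FPKM on Day42 and fell by 4.13 ± 0.46 on the log2 scale (adjusted p = 0.00062; −3.97 and 0.00105 without replicate 3). These genes have near-identical copies in the genome, so single values are uncertain. Ribosome biogenesis genes fell in 13 of 40 and RRN3 rose, and 23 fell without replicate 3. NPM3, a nucleolar chaperone, had 216, 224 and 151 FPKM on Day0 and 22.8, 9.82 and 23.4 FPKM on Day42 and fell by 4.1 ± 0.48 on the log2 scale (adjusted p = 0.000725; −4.33 and 0.000632 without replicate 3).

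Translation factors fell in 14 of 35 and rose in 3 (EIF4A2, EIF4G2 and EEF1A2) in both fits, but with total scaling 5 fell and 4 rose. EIF5A, an elongation factor, had 489, 369 and 554 FPKM on Day0 and 228, 119 and 129 FPKM on Day42 and fell by 2.26 ± 0.31 on the log2 scale (adjusted p = 0.00144; −2.16 and 0.00307 without replicate 3). EIF4G2, an initiation factor used without the cap complex, had 11.5, 16.2 and 24.8 FPKM on Day0 and 141, 121 and 171 FPKM on Day42 and rose by 2.38 ± 0.31 on the log2 scale (adjusted p = 0.00122; 2.2 and 0.00152 without replicate 3).

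Respiratory genes fell in both the nuclear and the mitochondrial genome. Mitochondrially encoded genes fell in 8 of 13 (9 without replicate 3), and their share of counts was 6.13% to 10.5% on Day0 and 2.65% to 2.94% on Day42. The nuclear genome holds copies of mitochondrial genes, so reads can be divided between them. MT-CO2, of cytochrome oxidase, had 62178, 43288 and 46136 FPKM on Day0 and 8239.9, 6760.1 and 6888 FPKM on Day42 and fell by 3.51 ± 0.26 on the log2 scale (adjusted p = 0.000131; −3.5 and 0.000557 without replicate 3). Nuclear genes of oxidative phosphorylation fell in 38 of 60, and in 43 with SDHA rising without replicate 3, while with total scaling 25 fell and 2 rose. NDUFB10, of complex I, had 797, 666 and 626 FPKM on Day0 and 154, 98.4 and 129 FPKM on Day42 and fell by 3.16 ± 0.3 on the log2 scale (adjusted p = 0.000339; −3.2 and 0.000542 without replicate 3).

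Glycolysis genes moved in both directions. Of 23 tested genes, 8 fell (HK2, ALDOA, TPI1, GAPDH, PGAM1, ENO1, LDHA and LDHB) and 3 rose (PFKP, ENO2 and PDK1), and without replicate 3, 12 of 24 fell and the same 3 rose. HK2 was under 1 FPKM in every library, and its call (adjusted p = 0.0447) was lost in 12 of 17 alternatives. LDHA, which makes lactate, had 49.9, 63.9 and 81.8 FPKM on Day0 and 9.1, 9.05 and 14.4 FPKM on Day42 and fell by 3.26 ± 0.3 on the log2 scale (adjusted p = 0.000265; −3.56 and 8.85e-05 without replicate 3). ENO2, the neuronal enolase, had 3.27, 3.695 and 8.34 FPKM on Day0 and 48.8, 60.8 and 78.02 FPKM on Day42 and rose by 2.96 ± 0.44 on the log2 scale (adjusted p = 0.00202; 2.72 and 0.00191 without replicate 3).

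Few sterol synthesis genes were called. In both fits 2 of 25 rose, MSMO1 among them, and 3 fell, FDPS and NSDHL among them. The median was −0.25 with TMM and 0.39 with total scaling, where 5 rose and 2 fell, and 5 fell without Day0 replicate 3. Serine and one-carbon genes fell in 4 of 18 (PHGDH, PSAT1, PSPH and AHCY), a share of 22.2% beside 23.4% of all genes tested, and in 7 without replicate 3, where CTH rose. The count was 7 without Day42 replicate 2, and 2 without Day0 replicate 1 or 3. With total scaling 2 fell and 3 rose.

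Lysosome genes rose in 9 of 28, of which 7 encode the vacuolar proton pump or its accessory proteins (ATP6V0A1, ATP6V0D1, ATP6V1A, ATP6V1B2, ATP6V1H, ATP6AP1 and ATP6AP2), with CTSB and SCARB2. LAMP1, NPC2 and GRN fell, LAMP1 from under 1 FPKM in every Day0 library. Without replicate 3, 10 rose and 4 fell, and with total scaling 12 rose and 1 fell. The vacuolar pump also acidifies synaptic vesicles.

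Most metallothioneins fell, and antigen presentation genes fell in part. Of 9 metallothioneins, which bind zinc and copper, 7 fell (8 without replicate 3), and the summed level was 338 to 748 FPKM on Day0 and 1.46 to 20.1 on Day42. MT1G had 242, 90.9 and 264 FPKM on Day0 and 0 in all 3 Day42 libraries, at least 1479.8-fold lower (adjusted p = 0.000137, and 7.63e-05 without replicate 3). Paralogs of this family are alike in sequence, so reads can be divided between them. Of 24 tested genes of class I presentation and interferon response, 11 fell and 0 rose, and 14 of 25 fell and 1 rose without replicate 3. IFITM1, an interferon-induced membrane protein, had 3712, 3317 and 2745 FPKM on Day0 and 7.24, 0.0382 and 0.351 FPKM on Day42 and fell by 11.04 ± 1.87 on the log2 scale (adjusted p = 0.00314; −10.52 and 0.0035 without replicate 3). PSMB8, an immunoproteasome subunit, had 6.76, 6.496 and 6.71 FPKM on Day0 and 0, 0.01502 and 0.02198 FPKM on Day42 and fell by 9.66 ± 1.29 on the log2 scale (adjusted p = 0.00134; −10.34 and 0.000256 without replicate 3).

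Progenitor genes went both ways. Of 27 tested, 5 rose (SOX1, MSI1, CDH2, VIM and HOPX) and 9 fell (SOX2, SOX3, PAX6, NOTCH1, NOTCH2, PROM1, TTYH1 and GLI3 among them), and without replicate 3, 6 of 28 rose (LRP2 besides) and 13 fell. With any single Day0 or Day21 library left out there were 2 rising members, leaving out Day42 replicate 1 or 2 left 3, and leaving out Day0 replicate 1 or 3 left 5 or 4 falling. The summed level was 134 to 179 FPKM on Day0 and 138 to 205 on Day42. Among 21 tested commitment factors, EBF1, MYT1L, SOX11 and ZEB2 rose and NHLH2 and ONECUT1 fell, and without replicate 3, 6 rose. Without Day0 replicate 1, 1 rose, and 2 rose without any other single library of Day0 or Day21 or without Day42 replicate 1.

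Markers of other cell types differed in level on Day42. Summed over a list, they reached 0.862 to 2.52 FPKM for muscle, but 79.4 to 101 for astrocytes and 87.4 to 106 for mesenchyme. GFAP, AQP4 and ALDH1L1, which define astrocytes, were at 0 in all Day42 libraries, from Day0 values of 0.03103, 0.0155 and 0.0765 FPKM for GFAP. Of 14 tested astrocyte markers, 6 fell (GFAP, AQP4, ALDH1L1, GJA1, GLUL and APOE) and SLC1A2 rose, and the list summed to 299 to 607 FPKM on Day0 and 79.4 to 101 on Day42. Most of that Day42 sum came from members whose values are not given here. APOE, a lipid carrier, had 282, 174 and 521 FPKM on Day0 and 0, 0.0507 and 0.0592 FPKM on Day42 and fell by 13.65 ± 1.13 on the log2 scale (adjusted p = 0.000177; −14.27 and 9.31e-05 without replicate 3). SLC1A2, a glutamate transporter chosen after its values were seen, had 0.00742, 0.0167 and 0.0156 FPKM on Day0 and 0.809, 1.01 and 1.07 FPKM on Day42 and rose by 5.46 ± 0.74 on the log2 scale (adjusted p = 0.00141; 5.34 and 0.000434 without replicate 3). Without replicate 3, 6 fell (FGFR3 in place of GLUL) and NFIA rose besides.

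Some mesenchymal markers rose. COL3A1, DCN and LUM rose, and BGN, TWIST2, THY1, OLFML3 and S100A4 fell, among 23, shares of 13% and 21.7% beside 8.82% and 23.4% of all genes tested. Without replicate 3, 5 rose (FBN1 and ACTA2 besides) and 6 fell (TAGLN besides), and without Day42 replicate 1, 8 fell. DCN, decorin, had 0, 0 and 0.00382 FPKM on Day0 and 2.199, 2.85 and 3.06 FPKM on Day42 and rose by 10.26 ± 1.16 on the log2 scale (adjusted p = 0.000648; 10.07 and 0.000101 without replicate 3). COL3A1, a fibrillar collagen chosen after its values were seen, had 0.02503, 0 and 0.00704 FPKM on Day0 and 8.67, 3.697 and 14.3 FPKM on Day42 and rose by 8.96 ± 1.34 on the log2 scale (adjusted p = 0.00207; 8.44 and 0.000602 without replicate 3). LUM, lumican, was at 0 in replicate 3, with 0, 0.0186 and 0.0185 FPKM on Day0 and 14.8, 45.2 and 0 FPKM on Day42. It rose by 9.85 ± 2.52 on the log2 scale (adjusted p = 0.0176; 10.4 and 8.06e-05 without replicate 3), a call lost in 5 of 19 alternatives. OLFML3, a secreted matrix protein, had 9.06, 11.1 and 15.02 FPKM on Day0 and 0 in all 3 Day42 libraries, at least 324-fold lower (adjusted p = 0.000125, and 3.36e-05 without replicate 3). Of the markers that define such cells, DCN and LUM rose, while COL1A1 and TWIST1 stayed under 1 FPKM in every library of both days. COL1A2, a further such marker, was called in neither fit. The list summed to 152 to 226 FPKM on Day0 and 87.4 to 106 on Day42, and the part of such cells in the other results was not tested.

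Muscle markers fell in 8 of 13 (7 of 14 without replicate 3). Of the 16 in the table, 11 were at 0 in every Day42 library and 2 in every Day0 library. ACTC1, cardiac actin, had 52.6, 47.5 and 86.4 FPKM on Day0 and 0 in all 3 Day42 libraries, at least 1392-fold lower (adjusted p = 5.31e-05, and 1.82e-05 without replicate 3). Endoderm and choroid plexus lists share TTR, transthyretin, the 1 member of each that rose, with 0.0352, 0 and 0 FPKM on Day0 and 19.1, 16.4 and 35.7 FPKM on Day42, and it rose by 10.05 ± 1.61 on the log2 scale (adjusted p = 0.00261; 9.66 and 0.000596 without replicate 3). AFP, of fetal liver, had 8.06, 10.4 and 4.47 FPKM on Day0 and 0 in all 3 Day42 libraries, at least 248-fold lower (adjusted p = 0.000445, and 0.000128 without replicate 3). Endoderm markers fell in 4 of 8 (AFP, APOA2 and FOXA3 among them) and in 3 of 10 without replicate 3, but in 1 without Day0 replicate 1 and in 2 without Day0 replicate 3, Day21 replicate 1 or Day21 replicate 3, and in 2 with total scaling. Choroid plexus and ependyma markers fell in 5 of 10 (PRLR, FOXJ1, CCDC78, DNAH11 and OTX2) and in 6 of 11 without replicate 3.

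Blood, microglia and endothelial markers fell in 3 of 16 (AIF1, TEK and FLT1) and in 7 of 17 without replicate 3, with 0 rising. AIF1, of microglia, had 5.32, 6.54 and 5.02 FPKM on Day0 and 0.0436, 0.0895 and 0.143 FPKM on Day42 and fell by 6.44 ± 0.86 on the log2 scale (adjusted p = 0.00135; −6.88 and 0.000284 without replicate 3). Oligodendrocyte markers fell in 3 (OLIG1, PDGFRA and MOG) and NKX2-2 rose, of 10 tested and of 13 without replicate 3. Neural crest markers fell in 4 of 9 (FOXD3, ERBB3, MITF and PMEL) and SNAI2 rose, with TFAP2B rising besides without replicate 3. Their summed level was 6.08 to 11.4 FPKM on Day0 and 5.48 to 36.9 on Day42, highest in replicate 3.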

How the data were processed

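Gene expression was measured by RNA sequencing in 3 libraries per day. Per the labels' protocols, total RNA was extracted with Trizol and about 10 ng entered each library, made with a NEBNext low-input kit. GRCh38, FastQC and cutadapt 1.9 appear in the submitters' processing notes, while the aligner, counter, strand setting and annotation used are not given in the sources at hand. Raw counts, whole numbers per the file headers and values, were deposited for each gene and library. FPKM came beside them, computed by the authors with a library total that no source used here states. Column names gave each column's library, and 0 columns stayed unmatched. Counts of 4 and 8 occurred 2.17 and 2.10 times as often as their neighbours, for a reason not settled here. Counts were therefore not taken as independent fragments, and the limit for a count of 0 was set at 12 counts per library. Its mean was 0.227 CPM on Day0 and 0.146 on Day42, and it covers counting error only.

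Counts were filtered with filterByExpr, scaled by TMM and fitted with edgeR 4.0.16 in R 4.3.3 over all 9 libraries, with 1 mean per day (6 residual degrees of freedom), and again without Day42 replicate 3. Alternatives were DESeq2 1.42.0, limma 3.58.1 on log2(FPKM + 1) and log2(FPKM + 0.1), voom with quality weights, other filters and scalings, only the 2 days, the replicate block and each library left out in turn. Scaling by the total count, and the 2 days without Day42 replicate 3, were added after seeing the data. Tables were made in Python 3.11.15 (numpy 2.4.6, pandas 2.3.3), with plots by matplotlib 3.10.9.

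The 51 gene lists and the named genes were chosen with earlier results of these data known. Lists are described by counts and medians with no set test, and 12 listed symbols are not analysed here. Named genes were the 5 markers, a panel of 19 genes, the 12 genes per direction with the largest change among those called in both fits, with days apart, 10 FPKM or more on average on the day of higher level and a protein-coding entry, and up to 4 members per list, called in both fits with the largest change. Members named only to spell out a small count were chosen after their values were seen, and some are not reported here. Gene identifiers and coordinates are those of the table, and promoter sequences are from RefSeq. Genes whose models overlap another are uncertain, since the counting could share their reads. On the same strand these are ALDH1L1, APOC1, APOE, CCND2, CDH1, CDH2, CELF4, COL3A1, DDC, DDIT3, DIRAS3, DNMT1, EIF4G2, ELAVL3, ELAVL4, ENO2, GAP43, GATA3, GCH1, HSPE1, HTR1A, IFITM1, KCND3, KIFAP3, LDHA, MAPT, NEFL, NME1-NME2, OLFML3, POU5F1, RBFOX1, RPL37, RPS19, SEMA6D, SOX2, SYNGR1, SYT1, TAC3, TDGF1, TOP2A, TPH1, TPH2, TUBB3, UHRF1, VAMP2. On the other strand alone they are ACTC1, AQP4, C9orf135, CAVIN3, CHAF1A, CLDN10, EIF5A, FEV, GATA2, GFAP, GRIA2, GRM7, MAP2, NKX2-2, PCSK1, PCSK2, PENK, PSMB8, PTHLH, SCN3A, SLC17A6, SLC18A2, SLC1A2, SLC29A4, SLC6A4, SNAP25, UTS2, VIM.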

Additional observations from a re-analysis of the deposited data

How the results depend on the processing

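With the replicate block, 1051 genes rose and 2659 fell, against 1778 and 4721 without it. Deviations from the day mean of same-numbered Day0 and Day42 libraries had r of −0.00128, −0.0139 and −0.03. Each was below the highest r of the same Day0 library with another number. These r left out Day21, and deviations within a day are tied to each other. They cannot show that the replicate number carries nothing, so the lower counts with the block stand as a limit. Leaving out each library in turn gave 1072 (without Day0 replicate 1) to 3220 (without Day42 replicate 3) rising genes and 3545 (without Day0 replicate 1) to 5664 (without Day42 replicate 3) falling genes. The falling count was 1993 with a filter of at least 1 FPKM in 3 libraries, which tests 10619 genes, 2079 with limma on log2(FPKM + 1) and 2178 with limma on log2(FPKM + 0.1), both over those genes. With only the 6 Day0 and Day42 libraries, 1204 rose and 3229 fell (2522 and 4860 without replicate 3). DESeq2 called 2621 and 5674 and gave no adjusted p for 1468 genes. Called list members numbered 598 of 1177, and 458 with the replicate block. With the replicate block, serotonin handling genes rose in 4 and fell in 0, stem cell surface genes fell in 12 and metallothioneins in 3. Genes tested and named with values gave 2601 fits under the alternatives, of which 2432 kept direction and side of the threshold, 152 lost the call, 17 gained it and 0 reversed. Low genes are uncertain in every library, and why the number of genes with a count differed at like total counts was not tested.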
